A study of Mus musculus with 4 samples.

Results

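The genes described here are splicing factors and heterogeneous nuclear ribonucleoproteins (hnRNPs), the proteins that cut introns out of pre-mRNA or steer which exons are kept. They were chosen by symbol alone: the Srsf, Snrp, Hnrnp, Sf3a, Sf3b, Prpf and Lsm families together with Esrp1, Esrp2, Rbfox2, Ptbp1, U2af1 and U2af2. The arrays held 78 such genes, with 124 probes, among 32970 genes or unnamed transcripts. The groups were lineage-negative CD44+ cells (2 samples) and lineage-negative CD44- cells (2 samples), sorted from tumours of the glandular stomach in 30-week-old mice. All 4 samples came from K19-Wnt1/C2mE mice, so both groups carry the same transgenes: the keratin 19 promoter, active in gastric epithelium, drives Wnt1 and, in C2mE, Ptgs2 and Ptges, which make prostaglandin E2. The labels do not say how many mice a sample holds, nor whether the replicates are different animals. The spread behind each p-value below is therefore that between 2 samples a group and could be technical. Cells were sorted as pools, and fewer cells of a type cannot be told apart from less RNA per cell.

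Splicing is carried out by the spliceosome, a machine assembled on each intron from small nuclear ribonucleoproteins (snRNPs), each a small RNA held in a ring of Sm or Lsm proteins. Around this core, SR proteins mostly favour the use of nearby exons and hnRNPs often oppose it, while factors limited to some cell types set tissue-specific exon choices. Examples are ESRP1 and ESRP2, epithelial proteins known to promote inclusion of the variable exons of CD44, the receptor by which these cells were sorted.

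The levels below are log2 of the processed spot signal relative to the 75th percentile of each array. Before scaling, that percentile was a signal of 244 and 493 in CD44+ cells, and of 406 and 527 in CD44- cells. No spot was saturated. The first CD44+ array was the dimmest, with 53.1% of gene spots well above background, against 65.6% to 69.6% on the other 3. Markers of other cell types differed with the groups. Of fibroblast markers 14 of 14 had a log2 difference below 0, and they had a summed level (in multiples of the 75th percentile) of 13.8 and 52.4 in CD44+ cells and 87.0 and 545 in CD44- cells. For endothelial markers, 8 of 9 below 0, these sums were 1.63 and 2.31 against 7.12 and 125, and for enteroendocrine markers, 11 of 11 below 0, 3.97 and 5.33 against 366 and 781. Squamous markers, 8 of 10 below 0, summed to 18.6 and 3.52 against 241 and 400. Leukocyte markers, 7 of 10 above 0, summed to 7.66 and 6.48 against 6.13 and 4.49, and mast cell markers, 7 of 7 above 0, to 10.5 and 14.9 against 3.44 and 3.19. Epithelial markers, 9 of 13 above 0, summed to 2213 and 1601 in CD44+ cells and 2003 and 877 in CD44- cells, with Krt8 and Cdh1 well above background on all 4 arrays. Cell cycle genes, 28 of 28 above 0, summed to 294 and 334 against 135 and 109. Fibroblast and endothelial signal was thus highest on the second CD44- array. The part of these differences in the results below was not tested.

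No splicing gene passed the test between CD44+ and CD44- tumour cells. Of the 78 genes 77 passed the filter on dim probes, and limma called 0 of 77 different at an adjusted p under 0.05 (Benjamini-Hochberg, over all 21045 genes), where 0.399% of all genes passed (0.0238% higher and 0.375% lower). The smallest adjusted p was 0.462. At an unadjusted p under 0.05 there was 1 gene, Srsf12, fitted lower in CD44+ cells from values under the background mark there, where 10.8% of all genes passed in either direction (2.86% higher and 7.9% lower). Of the 76 genes well above background on all 4 arrays, 1 was at least 2-fold apart, Prpf4b, or 1.32%, against 10.2% of all 17173 such genes. The log2 differences of the 76, CD44+ minus CD44-, ran from -1.13 to 0.93, while those of the 17173 ran from -8.06 to 3.97. With 2 arrays per group the median standard error was 0.46, larger than the median absolute difference of 0.39, so differences of the size of most of these could not be told from array error. A p that misses the threshold does not show that levels are equal. For a single gene an exact permutation test of 2 against 2 arrays cannot go below p = 0.333.

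**Figure D1:**
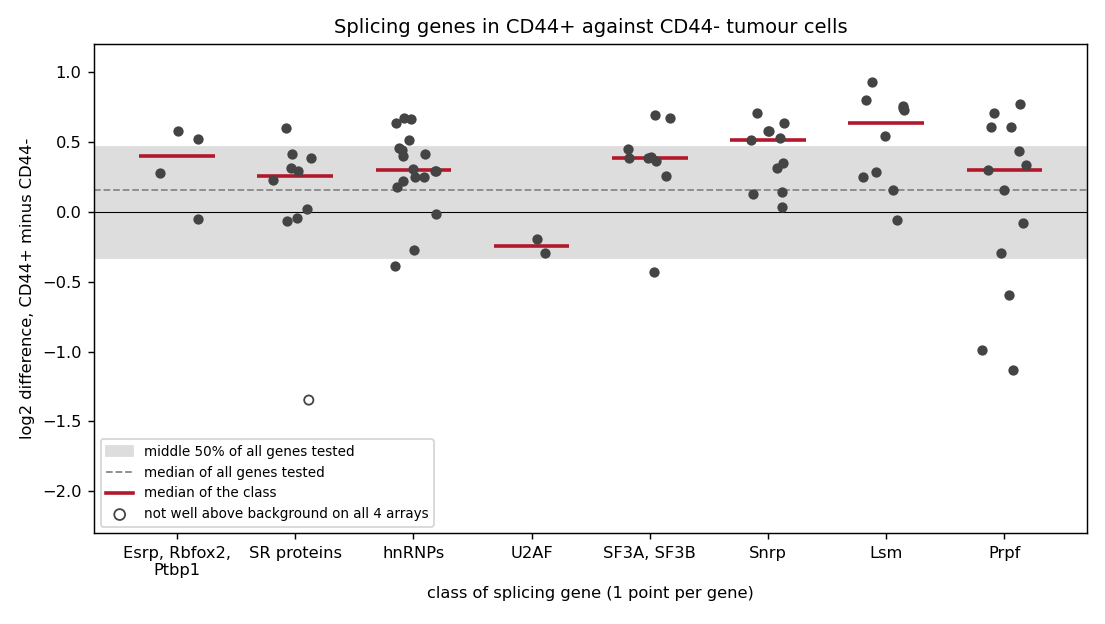
Each point is the log2 difference, CD44+ minus CD44- cells, of 1 splicing gene, by class; red bars are class medians, the dashed line and grey band the median and middle 50% of the 21045 genes tested, and the open circle is Srsf12, not well above background on all 4 arrays. Filled points lie between -1.13 and 0.93, and the Lsm class has the highest median, 0.64.

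Small positive differences were common. The difference lay above 0 for 61 of 77 genes, or 79.2%, against 60.6% of all genes, and the median was 0.34, against 0.16 for all genes. Both CD44+ arrays lay above both CD44- arrays for 37 of 77 genes, or 48.1%, against 22.4% of all genes. Both lay below for 5 genes, or 6.49%, against 17.2% of all genes. One of the 5 is Srsf12, read under the background mark in CD44+ cells. Much of the set is bright. Among the 17173 genes tested that were well above background on all 4 arrays, 68.6% lay above 0, and the median was 0.24. Both CD44+ arrays lay above both CD44- arrays in 25.7% of them, and below in 10.7%. The classes below are set against all genes, whose share above 0 is lower than that of these brighter genes. With the second CD44- array left out, 59 of 77 lay above 0 with a median of 0.26, and with the first CD44+ array left out 64 did, with a median of 0.44. With the second CD44+ array left out, 52 did, with a median of 0.21. Scaling to the array median moved all genes up by 0.11, so the median is also given relative to that of all genes: 0.18 in the fit as described, and between 0.05 and 0.34 over the alternatives. The sign of single genes was less steady, and 25 of 77 changed it in at least 1 of 13 alternatives that give 1 value per gene.

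**Figure D2:**
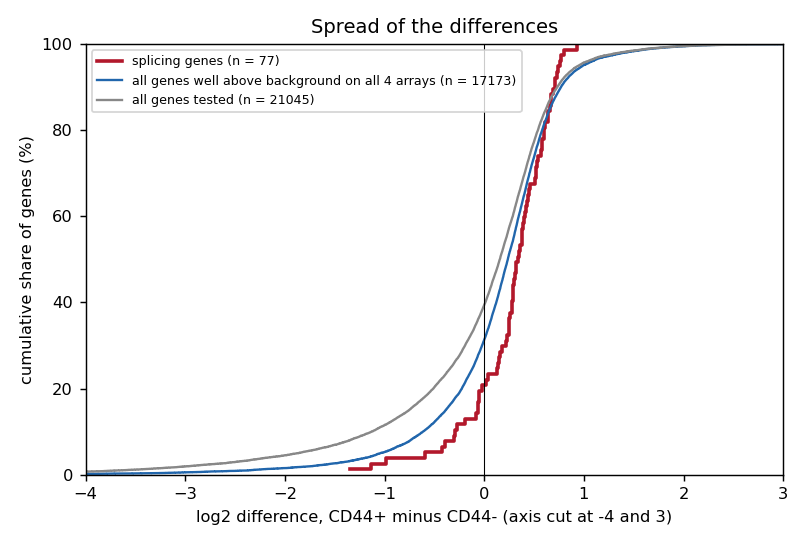
Cumulative share of genes (%) by log2 difference, CD44+ minus CD44-, for the 77 splicing genes (red), the 17173 genes tested that were well above background on all 4 arrays (blue) and all 21045 genes tested (grey). The red curve is steeper and lacks the long tail of lower genes, with its lowest step, Srsf12, resting on values under the background mark in CD44+ cells.

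The gap between 2 single arrays of a group varies more than a difference between 2-array means, so the sizes below are not on 1 scale. The median absolute difference between groups was 0.39 over the 77 genes. The median absolute gap between the 2 CD44+ arrays was 0.41, and between the 2 CD44- arrays 0.26. Over all genes tested the difference between groups was 0.43, and these gaps were 0.52 and 0.49. The second CD44+ array was the highest of the 4 for this set, with a median deviation of 0.27 from each gene's mean over the 4 arrays. The first CD44+ array stood at 0.03, the first CD44- array at -0.09 and the second CD44- array at -0.25. Across the 77 genes, levels on any pair of arrays correlated between 0.967 and 0.991, a description across genes that share their probes' brightness.

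Among the regulators of cell-type-specific splicing, ESRP1 is the factor most directly tied to CD44, since it binds next to the variable exons and favours their inclusion. Esrp1 had levels of -0.74 and -0.85 in CD44+ cells, against -0.55 and -1.59 in CD44- cells. Its 2 CD44+ values lay between the 2 CD44- values, so the groups overlapped. The log2 difference was 0.28 ± 0.51 (SE, n = 2 arrays per group), a ratio of 1.21 with a 95% interval of 0.54 to 2.73 (limma, adjusted p = 0.878). It was -0.24 without the second CD44- array and 0.80 without the first, so its sign rested on 1 array. Esrp2, the paralogue with overlapping targets, stood at 2.25 and 2.84 in CD44+ cells and 2.75 and 2.44 in CD44- cells. These overlapped too, with a log2 difference of -0.05 ± 0.47 (limma, adjusted p = 0.977) and an interval of the ratio from 0.46 to 2.03. The sign of Esrp2 turned to 0.05 with median scaling and in the authors' value table, and to 0.24 without the first CD44+ array and 0.11 without the first CD44- array. The intervals leave room for a 2-fold difference in Esrp1 in the direction of CD44+ cells, and in Esrp2 in either direction.

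Cd44 itself was brighter in the cells sorted for it, at 6.31 and 6.54 in CD44+ cells and 4.26 and 5.11 in CD44- cells (log2 difference 1.74 ± 0.49, limma, adjusted p = 0.199). The other Cd44 probes differed by 2.27 and 1.40, and the files do not say which exons any of the 3 probes reads, so variant and standard CD44 mRNA are not separated here. Epcam, a surface marker of epithelial cells, differed by 1.66 ± 0.46 (limma, adjusted p = 0.199), at 4.69 and 4.66 against 3.34 and 2.70. The Esrp1 and Esrp2 differences were smaller than that of Epcam, though no test was made of the gap between these genes.

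Rbfox2 binds near exons that change between epithelial and mesenchymal cells, and PTBP1 is a widespread repressor of neuronal and muscle exons. Rbfox2 had levels of 1.33 and 1.19 in CD44+ cells and 0.77 and 0.60 in CD44- cells, without overlap. The log2 difference was 0.58 ± 0.44 (limma, adjusted p = 0.773). A second, dim Rbfox2 probe pointed the other way, at -0.46, and was not well above background on the first CD44+ array. Ptbp1 stood at 3.82 and 3.82 against 3.50 and 3.10, a difference of 0.52 ± 0.45 (limma, adjusted p = 0.784). Its second probe differed by 0.36. Both genes thus sat slightly higher in CD44+ cells by their brighter probe, within the error of the fit.

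U2AF, the dimer of U2af1 and U2af2 products that reads the end of the intron before the branch site is bound, was the class with no gene above 0. U2af1 had levels of 1.37 and 1.77 in CD44+ cells and 1.93 and 1.60 in CD44- cells. The log2 difference was -0.19 ± 0.45 (limma, adjusted p = 0.906), and the groups overlapped. U2af2 stood at -3.08 and -3.89 against -3.25 and -3.12, a difference of -0.30 ± 0.48. Its second probe, not well above background on the first CD44+ array, differed by -0.90. Both genes changed sign in other settings: U2af1 reached 0.00 without the first CD44+ array, and U2af2 0.04 with normexp background correction and 0.11 without the second CD44+ array.

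SR proteins carry an RNA-binding domain and a tail rich in arginine and serine with which they recruit the spliceosome to exons. The difference was above 0 in 7 of 10, or 70%, against 60.6% of all genes, and its median was 0.26. Of genes well above background on all 4 arrays 68.6% lay above 0, so this share was near theirs. In 4 genes, or 40%, both CD44+ arrays lay above both CD44- arrays, against 22.4% of all genes. In 1, or 10%, both lay below, against 17.2% of all genes and 10.7% of those well above background on all 4 arrays. Srsf9 was the highest, with levels of 2.67 and 2.60 in CD44+ cells and 2.20 and 1.86 in CD44- cells (difference 0.60 ± 0.44, limma, adjusted p = 0.770). Srsf1, the founding member of the family, stood at 2.87 and 2.47 against 2.60 and 1.91, with overlap (0.42 ± 0.48). Srsf10, a factor that turns into a repressor when dephosphorylated, had 1.29 and 1.34 against 1.31 and 0.54 (0.38 ± 0.48), and its difference was -0.003 without the second CD44- array. Srsf7, Srsf5 and Srsf6 differed by 0.02, -0.05 and -0.06, their groups overlapped, and each changed sign in other settings, Srsf5 and Srsf6 with median scaling and Srsf7 with quantile normalization among them.

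Srsf12 had the lowest fitted difference, which has only a bound behind it. Neither CD44+ array read it well above background, at -4.82 and -5.55, against -4.52 and -3.16 in CD44- cells. The lowest signal well above background was taken as the floor, -3.41 on the first CD44+ array and -5.16 on the second. With these floors the mean was at least 1.37-fold lower in CD44+ cells (limma on the fitted values, adjusted p = 0.462). The first floor lay above the first CD44- value, so this limit rests mainly on the second CD44+ array and the second CD44- array. Srsf12 passed the filter through CD44- cells alone. The 1 call that any alternative gave in this set, Srsf12 without the first CD44- array (fitted -2.03, limma, adjusted p = 0.0468), sets such values against a single CD44- array and is given as a value only. Before scaling, Srsf12 had 59.0 units of processed signal on the second CD44- array and 17.7 on the first. The CD44+ arrays had 8.62 and 10.5. The second CD44- array also had the highest sums of fibroblast, endothelial and enteroendocrine markers, and their part in this value was not tested.

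The hnRNPs coat nascent transcripts, and many of them hold exons out of the mRNA. The difference was above 0 in 15 of 18 tested, or 83.3%, against 60.6% of all genes (median 0.30). In 11, or 61.1%, both CD44+ arrays lay above both CD44- arrays, against 22.4% of all genes. None had both below, against 17.2%. Hnrnpul1 had levels of -0.17 and -1.05 in CD44+ cells and -1.32 and -1.25 in CD44- cells (difference 0.67 ± 0.49, limma, adjusted p = 0.766), and the first CD44+ array stood clear of the other 3. Hnrnpab stood at 8.25 and 8.42 against 7.92 and 7.43 (0.66 ± 0.45), and its other 2 probes differed by 0.49 and 0.71. Hnrnpa3 had 7.19 and 6.85 against 6.66 and 6.10 (0.64 ± 0.47). Its other 3 probes differed by 0.09, -0.002 and -0.27, so the brightest probe stood apart from them. Hnrnpc, which binds uridine tracts and keeps U2AF from cryptic sites, had 0.38 and 1.01 against 0.36 and 0.02 (0.51 ± 0.47). Hnrnpa1, the classical antagonist of SRSF1, had 3.76 and 4.17 against 3.47 and 3.58 (0.44 ± 0.45), and its other probes differed by 0.29 and -0.07. At the lower end were Hnrnpdl (-0.39), Hnrnph3 (-0.27) and Hnrnph1 (-0.02), all with overlap between groups, and Hnrnph1 lay at 0.09 with median scaling. Hnrnpm and Hnrnpll, known as regulators of CD44 and CD45 exons in other cells, differed by 0.25 ± 0.44 and 0.46 ± 0.44.

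The SF3A and SF3B complexes are parts of the U2 snRNP and clamp it onto the branch site of the intron. The difference was above 0 in 8 of their 9 genes, or 88.9%, against 60.6% of all genes (median 0.38). In 6, or 66.7%, both CD44+ arrays lay above both CD44- arrays, against 22.4% of all genes. In 1, or 11.1%, both lay below, against 17.2%. Sf3b5 had levels of 3.20 and 3.43 in CD44+ cells and 2.79 and 2.47 in CD44- cells (0.69 ± 0.44, limma, adjusted p = 0.728). Sf3b4 had 2.10 and 2.55 against 1.74 and 1.56 (0.67 ± 0.45). Sf3a1, which joins the complex to U2 RNA, had 2.18 and 2.90 against 2.11 and 2.08 (0.45 ± 0.47). Sf3b1, the large scaffold that is often mutated in blood cancers, was the exception, at -1.89 and -1.78 against -1.51 and -1.31 (-0.43 ± 0.44). Its second probe differed by 0.09, with overlap, so its probes did not point the same way.

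The Snrp genes encode the Sm ring of the spliceosomal snRNPs and proteins specific to the U1 and U2 particles. Each of the 11 tested had a difference above 0 (median 0.52), where 60.6% of all genes did. Snrpd2 and Snrpd3 lay below 0 with quantile normalization, and Snrpa, Snrpd2 and Snrpd3 without the second CD44+ array. Snrpd2 also lay below 0 without the second CD44- array. The class median was 0.21 without the second CD44+ array. Both CD44+ arrays lay above both CD44- arrays in 3 of the 11, or 27.3%, near the 22.4% of all genes. In this class the second CD44+ array lay a median of 0.66 above the first, a gap between single arrays, beside a median difference between groups of 0.52. Snrpa1, of the U2 particle, had levels of 0.33 and 0.74 in CD44+ cells and 0.37 and -0.71 in CD44- cells (0.71 ± 0.52, limma, adjusted p = 0.770). Its other U2 partner Snrpb2 stood at 3.56 and 4.36 against 3.40 and 3.38 (0.57 ± 0.48). The Sm proteins Snrpd1 and Snrpg had 2.40 and 3.33 against 2.36 and 2.10 (0.64 ± 0.50) and 6.75 and 6.98 against 6.47 and 6.21 (0.53 ± 0.44). Snrpn, an imprinted gene best known from neurons, was dim, at -3.08 and -4.004 against -3.49 and -3.66. Its difference was 0.04 ± 0.49, and its second probe, not well above background on the first CD44+ array, gave -0.68. Snrpn turned to -0.32 as the mean of both probes, -0.43 without the first CD44+ array and -0.05 without the second CD44- array.

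Lsm proteins form the ring of the U6 snRNP from Lsm2 to Lsm8, while a ring with Lsm1 in place of Lsm8 acts in cytoplasmic mRNA decay, and Lsm10 and Lsm11 belong to the U7 particle that trims histone mRNAs. They were the class with the highest median, 0.64 over 10 genes tested, against 0.16 for all genes, and between 0.39 and 0.74 over the alternatives. In 6 of the 10, or 60%, both CD44+ arrays lay above both CD44- arrays, against 22.4% of all genes. The 7 genes of the U6 ring lay above 0, with a median of 0.74, except that Lsm6 and Lsm7 were below 0 without the second CD44+ array and Lsm6 also without the second CD44- array. Lsm5 had levels of 1.69 and 1.88 in CD44+ cells and 0.86 and 0.85 in CD44- cells. This was the highest difference in the set, a ratio of 1.91 with a 95% interval of 0.95 to 3.83 (log2 0.93 ± 0.44, limma, adjusted p = 0.527). Lsm5 held between 0.80 and 1.04 over the 14 alternatives. Lsm8 had 3.00 and 3.67 against 2.42 and 2.64 (0.80 ± 0.47), and Lsm3 had 3.15 and 3.35 against 2.56 and 2.48 (0.73 ± 0.44). Lsm4 stood at 6.23 and 6.197 against 5.75 and 5.20 (0.74 ± 0.46). Lsm2 stood at -2.56 and -2.43 against -2.90 and -3.60 (0.76 ± 0.47), and its second probe gave 0.92. Lsm6 and Lsm7, the remaining U6 ring genes, differed by 0.28 and 0.25 with overlap. Outside the ring, Lsm1 differed by 0.54, Lsm12 by 0.16 and Lsm10 by -0.06, which was 0.04 with median scaling. Lsm11, not well above background on 1 array of each group, was not tested, with processed signals of 9.58 and 23.5 in CD44+ cells and 19.4 and 10.6 in CD44- cells.

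**Figure D3:**
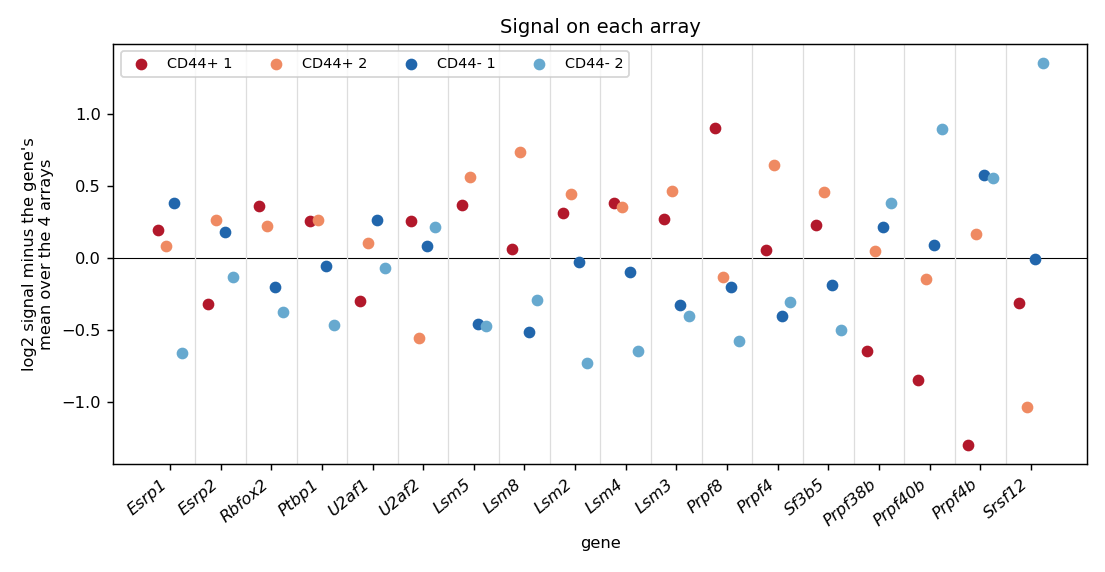
Log2 signal on each of the 4 arrays (CD44+ in red and orange, CD44- in dark and light blue) minus the mean of the gene over the 4 arrays. Shown are the regulators, U2AF and splicing genes from among those with the largest mean differences without overlap. The CD44+ points lie above the CD44- points from Lsm5 to Sf3b5 and below them from Prpf38b to Srsf12, while Esrp1 and Esrp2 overlap.

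Prpf genes are named after yeast pre-mRNA processing factors and act mostly in the U4/U6.U5 particle or in its activation. The middle 50% of their differences ran from -0.30 to 0.60. A difference above 0 was seen in 8 of 13, or 61.5%, near the 60.6% of all genes (median 0.30). Of genes well above background on all 4 arrays 68.6% lay above 0. In 5, or 38.5%, both CD44+ arrays lay above both CD44- arrays, against 22.4% of all genes. In 3, or 23.1%, both lay below, against 17.2% of all genes and 10.7% of those well above background on all 4 arrays. Prpf8, the scaffold at the heart of the catalytic centre, had levels of 2.87 and 1.84 in CD44+ cells and 1.77 and 1.39 in CD44- cells (0.77 ± 0.51, limma, adjusted p = 0.737), so most of its excess lay on the first CD44+ array. Without that array its difference was 0.26. Prpf4, of the U4/U6 particle, had 3.26 and 3.85 against 2.80 and 2.90 (0.71 ± 0.46), and both of its probes gave nearly the same difference, 0.71 and 0.69.

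The 3 Prpf genes lower in CD44+ cells without overlap were Prpf4b, Prpf40b and Prpf38b. Prpf4b, a kinase that phosphorylates other tri-snRNP proteins, had levels of 0.39 and 1.85 in CD44+ cells and 2.26 and 2.24 in CD44- cells. The difference was -1.13 ± 0.57 (limma, adjusted p = 0.578), a ratio of 0.46 with a 95% interval of 0.18 to 1.13. It was -0.40 without the first CD44+ array and -1.86 without the second. The other 3 probes of Prpf4b differed by -0.37, -0.08 and 0.01. Prpf40b, a relative of a U1 factor that bridges the ends of the intron, had 0.20 and 0.90 against 1.13 and 1.95 (-0.99 ± 0.51), and ranged from -1.39 to -0.58 with 1 array left out. Prpf38b had -1.34 and -0.65 against -0.48 and -0.31 (-0.60 ± 0.47), and its second probe differed by -1.19. In all 3 the first, dimmest CD44+ array was the lowest of the 4.

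The 250 bases before the gene start are shown for the 2 genes with the highest difference and the 1 with the lowest among those well above background on all 4 arrays, as RefSeq gives them on GRCm38.p6. They are written along the strand of the gene, with capitals marking 3 motifs searched on both strands. The GC box is GGGCGG. The ETS motif, bound by a family of activators common at housekeeping genes, is CCGGAAG. The third is the CCAAT box, and none of these letters overlap in the windows shown. The windows are chr6:56704700-56704949 on the minus strand for Lsm5, chr6:18848385-18848634 on the plus strand for Lsm8 and chr13:34875279-34875528 on the plus strand for Prpf4b.
Lsm5: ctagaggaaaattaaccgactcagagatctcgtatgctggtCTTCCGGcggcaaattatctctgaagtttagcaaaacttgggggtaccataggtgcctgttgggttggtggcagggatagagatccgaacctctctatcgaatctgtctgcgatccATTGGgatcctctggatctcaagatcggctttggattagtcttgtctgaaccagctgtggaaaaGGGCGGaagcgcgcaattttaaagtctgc
Lsm8: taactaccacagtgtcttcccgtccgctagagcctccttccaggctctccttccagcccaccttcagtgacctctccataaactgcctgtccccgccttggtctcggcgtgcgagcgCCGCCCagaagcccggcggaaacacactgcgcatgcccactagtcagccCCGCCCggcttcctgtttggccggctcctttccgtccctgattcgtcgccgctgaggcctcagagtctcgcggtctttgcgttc
Prpf4b: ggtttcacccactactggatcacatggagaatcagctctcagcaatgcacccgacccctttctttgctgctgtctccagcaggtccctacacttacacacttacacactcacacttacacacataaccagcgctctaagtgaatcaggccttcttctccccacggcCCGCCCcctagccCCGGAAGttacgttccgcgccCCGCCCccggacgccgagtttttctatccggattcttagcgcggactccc

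All 3 windows hold a GC box, and those of Lsm5 and Prpf4b also an ETS motif. Whether these letters go with the differences was not tested. Windows were found for 64 of the 78 genes, 86 windows in all, and compared with 13585 windows of the genes tested. An ETS motif was in 24.4% of the splicing gene windows and 11.6% of all windows, and a GC box in 62.8% and 52.5%. The NRF1 palindrome was in 19.8% and 6.90%, and a CCAAT box in 45.3% and 34.8%. The E box CACGTG was in 10.5% and 7.75%, the YY1 motif AAGATGG in 3.49% and 4.26%, and TATAAA in 6.98% and 8.61%. The splicing gene windows had a median of 20 CpG dinucleotides, against 14 in all windows, and 60.4% G or C against 58.4%. A match describes the letters of the window, not a binding site.

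Probes of the same gene were compared with each other. Of the 78 genes 32 had more than 1 probe passing the filter, and 26 of these had the same sign in all probes, with a median gap between the highest and lowest probe of 0.23. The 6 with opposite signs were Prpf4b (a gap of 1.14), Rbfox2 (1.04), Hnrnpa3 (0.91), Snrpn (0.71), Sf3b1 (0.52) and Hnrnpa1 (0.51). Probes of a gene can read different transcript isoforms, which the files do not annotate.

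**Figure D4:**
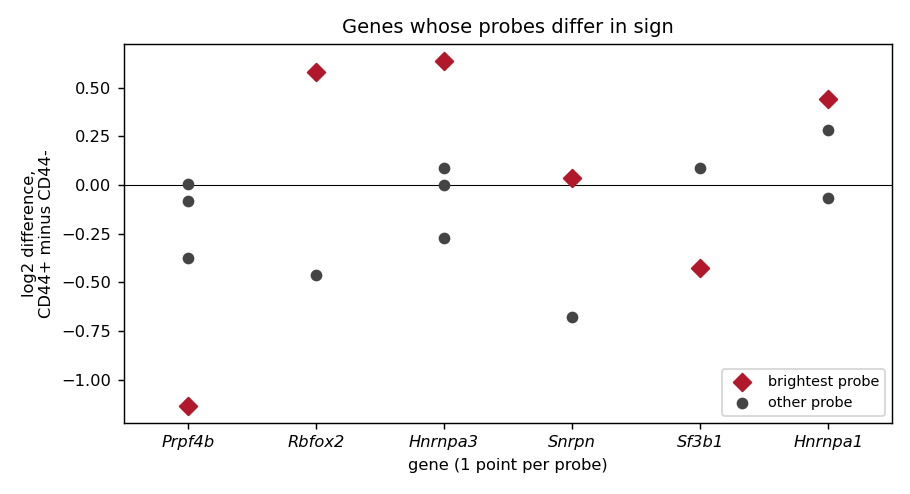
Log2 difference, CD44+ minus CD44-, of each probe passing the filter, for the 6 splicing genes whose probes differ in sign; red diamonds mark the brightest probe, which stands for the gene elsewhere. Prpf4b has its brightest probe at -1.13 and the others between -0.37 and 0.01.

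Other splicing genes, outside these families, were read from 3 lists. Of 64 other spliceosome and exon junction genes tested, 53, or 82.8%, lay above 0, against 60.6% of all genes, with a median of 0.27. In 27, or 42.2%, both CD44+ arrays lay above both CD44- arrays, against 22.4% of all genes. In 3, or 4.69%, both lay below, against 17.2%. None passed limma's test, at an unadjusted p under 0.05 either. Ppih, a prolyl isomerase of the U4/U6 particle, had levels of 3.98 and 3.90 in CD44+ cells and 3.26 and 2.76 in CD44- cells (0.93 ± 0.45, limma, adjusted p = 0.553). Plrg1, of the complex that activates the spliceosome, differed by 0.77 ± 0.45, and the U4/U6.U5 factor Usp39 by 0.76 ± 0.47. Acin1, an exon junction protein, was lower, at 0.88 and 2.01 against 2.62 and 2.65 (-1.19 ± 0.52, limma, adjusted p = 0.467), and its first CD44+ array was again the lowest. Among 23 genes for SR kinases and snRNP assembly, 16, or 69.6%, lay above 0 with a median of 0.25. None passed, at an unadjusted p under 0.05 either. Gemin6 of the SMN complex differed by 0.92 ± 0.46, and the SMN-associated Strap by 0.75 ± 0.48. The nuclear importer Tnpo1 differed by 0.75 ± 0.45 and Wdr77, a partner of the methyltransferase that prepares Sm proteins, by 0.66 ± 0.44.

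RNA-binding splicing regulators formed the third list. Of 63 tested, 35, or 55.6%, lay above 0, against 60.6% of all genes, with a median of 0.07. In 22, or 34.9%, both CD44+ arrays lay above both CD44- arrays, against 22.4% of all genes. In 12, or 19.0%, both lay below, against 17.2%. None passed over all genes. At an unadjusted p under 0.05 there were 6 of 63, each lower in CD44+ cells, a share near the 7.9% of all genes. Those with the smallest p follow. Elavl4, a neuronal RNA-binding protein, had levels of -3.86 and -3.54 in CD44+ cells and -2.04 and -1.22 in CD44- cells (-2.07 ± 0.49, limma, adjusted p = 0.144). Elavl3, its neuronal relative, was above background on neither CD44+ array, at -5.68 and -5.41 against -4.06 and -3.57 (limma, adjusted p = 0.181). With the CD44+ arrays set at their floors, -3.41 and -5.16, its mean was at least 1.39-fold lower. The floor of the first CD44+ array lay above both CD44- values, so that array gives no bound and the limit rests on the second. Elavl3 passed the filter through CD44- cells alone, so its p rests on values under the background mark. Rbfox1, the neuronal and muscle relative of Rbfox2, had -5.69 and -3.98 against -2.63 and -2.65 (-2.20 ± 0.61, limma, adjusted p = 0.199). Rbm24, a regulator of muscle exons, had -3.80 and -3.50 against -2.42 and -0.73 (-2.08 ± 0.61, limma, adjusted p = 0.222). Elavl4, Rbfox1 and Rbm24 each passed the background mark on 1 of the 2 CD44+ arrays, so they too passed the filter through CD44- cells alone. The first CD44+ value of each lay under that array's floor, -3.41, so their p-values rest partly on values under the background mark. The sums of enteroendocrine and fibroblast markers given above were lower in CD44+ cells too, and their part in these 4 transcripts was not tested. With a replicate block limma called 5 of this list lower, Elavl3, Elavl4, Rbfox1, Rbm24 and Qk, in a fit with 1 residual degree of freedom. Qk, named after its values were seen, had levels of -0.86 and -1.32 in CD44+ cells and -0.76 and 2.51 in CD44- cells (-1.97 ± 0.93, limma, adjusted p = 0.535), so its difference lay on the second CD44- array. Qk was also called with normexp background correction. Without the first CD44- array Elavl4, Rbfox1 and Rbm24 differed by -2.48, -2.19 and -2.92, and without the second by -1.66, -2.20 and -1.23.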

How the data were processed

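Amplified RNA of 4 sorted samples was read on 1-colour Agilent mouse arrays, 1 array a sample, all on 1 slide. The intensity values (gProcessedSignal) were deposited by the authors as scanner output: per the file headers, Agilent Feature Extraction had already subtracted background. The authors' value table, deposited beside them, holds a linear ratio: set against the scanner values, most probes have a median of 1 over the arrays, and each array was divided by 1 factor, whose choice is unknown.

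From the deposited intensities, log2 values minus each array's 75th percentile were computed, spots of a probe averaged and outlier spots left out. Probes were kept if they cleared the scanner's background mark in both samples of either group. The brightest kept probe stood for a gene, and a gene with no kept probe was not tested. limma 3.58.1 (R 4.3.3) was fitted over 21045 genes with Benjamini-Hochberg adjustment. On simulated data it recovered 6 of 100 genes changed by a log2 of 3 and 66 of 100 changed by 6. There the spreads within groups were shuffled among all genes, so the splicing genes' own spread was not simulated. With spreads drawn from all genes, differences as small as those of the splicing genes would rarely be called. Standard errors are limma's. Probe accessions were named through RefSeq tables (GRCm38.p6), from which promoter windows also come. Named genes were the regulators, U2AF, up to 4 genes of smallest p per class or list, those with the largest differences without overlap, or with a lower limit, or with probes of opposite sign. Other members named were picked after their values were seen. The set and the gene lists were chosen with earlier results of these data known.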

Additional observations from a re-analysis of the deposited data

How the results depend on the processing

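Over 14 alternatives, 0 of the chosen splicing genes were called higher, and 0 were called lower except 1, Srsf12, without the first CD44- array (leaving out each array gave 0 to 1). Their median difference was 0.44 with median scaling, 0.21 with quantile normalization, 0.44 in the authors' value table, and 0.21 to 0.44 with 1 array left out. Esrp2 turned to 0.0534 with median scaling and 0.0514 in the authors' value table, U2af2 to 0.0432 with normexp background and Snrpn to -0.32 as the mean of its probes. With 1 array left out, Esrp1 ranged from -0.24 to 0.80, Esrp2 from -0.34 to 0.24, U2af1 from -0.39 to 0.00439, U2af2 from -0.70 to 0.11, Srsf10 from -0.00297 to 0.77 and Snrpn from -0.43 to 0.50. Of all 77 genes tested 25 changed sign in at least 1 alternative. The cause of these changes was not tested. Calls over all genes were 84 in the fit as described, 748 with median scaling, 753 in the authors' table, 6 with quantile normalization, 541 with normexp (on median spot signals), 24 without the filter, 241 with an intensity trend and robust prior, and 34, 2, 1569 and 449 with the first or second CD44+ or first or second CD44- array left out. With a replicate block, 1829 genes were called, 0 of them among the 77 (smallest adjusted p 0.0899, limma) and 5 among the other splicing regulators. The shared numbers are only labels (r = 0.347 between deviations of same-numbered arrays, 2 pairs), and that fit has 1 residual degree of freedom. A slide or scan block was not run, since all 4 arrays share 1 slide. The number of arrays, 2 a group, limits the precision.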
